A study of Mus musculus with 9 samples.

Results

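Synovial fibroblasts (SFs) from hTNFtg mice were treated with infliximab and set against SFs from wild-type (WT) mice, to ask what still differed from WT while TNF was blocked. The comparison uses 6 of the 9 libraries in the series, 3 of each kind, and 13470 of the 49548 genes deposited, namely those with a mean of at least 10 normalized counts over the 6 libraries. WT SFs came from 8-week-old CBA C57BL/6J mice and are labelled as given no treatment, whereas the methods name a vehicle. hTNFtg SFs came from mice of the same background and age that carry a human TNF transgene and develop destructive polyarthritis, and the treated ones received infliximab at 1 µg/mL for 48 hours. All SFs were grown from digested ankle joints and depleted of CD45+ cells at passage 1. The 3 libraries of untreated hTNFtg SFs are given beside the others for reference. No WT SFs received infliximab here, so the transgene with its joint disease and the antibody itself cannot be told apart in any difference below. The methods call the replicates biological, without saying how many mice each held.

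TNF is a cytokine that binds TNF receptors on SFs and activates NF-kB, a family of transcription factors that switches on chemokines, proteases and its own inhibitors. SFs line the joint, make its lubricant and matrix, and in arthritis recruit leukocytes and degrade cartilage. Infliximab is a chimeric antibody that binds human TNF and keeps it from its receptors. Among the genes that differed from WT in this comparison were chemokines and other inflammatory genes and markers of myeloid cells, which were higher, and genes of bone, cartilage and WNT signalling, which were lower.

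The libraries were made by 3′ mRNA sequencing, where reads fall at the tail end of a transcript, and a normalized count is the number of reads on a gene after scaling by one factor per library. The 6 libraries held about 3828591 to 6485897 reads, with a median of 4798591. Spearman's rho between libraries over the genes tested ranged from 0.946 to 0.967 within treated SFs, from 0.929 to 0.962 within WT SFs and from 0.889 to 0.948 between the groups. All 12 fibroblast markers were above the level filter, and their summed counts were 43312 to 53613 in WT and 36504 to 42459 in treated SFs. Of 12 lymphocyte markers, 0 passed the level filter. Y-linked genes summed to 325 in treated replicate 3 and to 7 to 15 in the other 5 libraries compared. Xist, the RNA that silences one X chromosome in females, was at 0 in treated replicate 3 and at 291 to 560 in the others. Outside the 6 libraries, untreated replicate 3 had the same pattern, with Y-linked genes at 521 and Xist at 2. Untreated replicates 1 and 2 had Y-linked sums of 0 and 8 and Xist at 131 and 412. Hepatocyte markers summed to 2157 in treated replicate 3 against 166 to 233 in the other 5 libraries compared. Alb was at 265 there against 0 to 2. The gene counts without treated replicate 3 are therefore given below for all genes and for the gene lists, and the part of either difference in the results was not tested.

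Of the 13470 genes, 258 rose in treated hTNFtg SFs relative to WT at an adjusted p under 0.05 (1.92% of the genes tested) and 230 fell (1.71%). The median log2 fold change was 1.82 over the raised genes, with a range from 0.82 to 4.65, and −1.64 over the lowered genes, where over all genes it was −0.02. The 3 treated libraries stood above the 3 WT libraries for all 258 raised genes and below them for 229 of the 230 lowered genes, Slc30a3 being the exception, with 28, 132 and 134 in WT and 2, 1 and 32 in treated SFs. Among all genes tested, 11.3% stood above without overlap and 12% below. Under a looser 2-fold rule, met where P was under 0.05 before adjustment and the log2 fold change reached 1 in either direction, 595 genes were higher (4.42%) and 461 lower (3.42%). Leaving out WT replicate 1 gave 819 raised and 689 lowered genes, whereas leaving out any of the other 5 libraries left 53 to 169 raised and 83 to 115 lowered. Without treated replicate 3, limma called 53 raised and 86 lowered genes, 50 of them among the 258 and 82 among the 230. All 488 kept their direction, although leaving out a library cannot reverse a gene whose groups do not overlap. On the same genes untreated hTNFtg SFs differed from WT in 65 raised (0.483%) and 61 lowered (0.453%) genes, and treated SFs from untreated hTNFtg SFs in 0 genes by limma at the same threshold, where 215 genes were higher (1.6%) and 104 lower (0.772%) by the 2-fold rule and the untreated group includes a library of 613220 reads. In that library, untreated replicate 1, a single read equals 6.23 normalized counts, so that a 0 there allows up to 18.7. The 0 genes called between treated and untreated hTNFtg SFs come from a fit without a replicate block. Whether same-numbered libraries of those groups belong together was not tested.

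**Figure D1:**
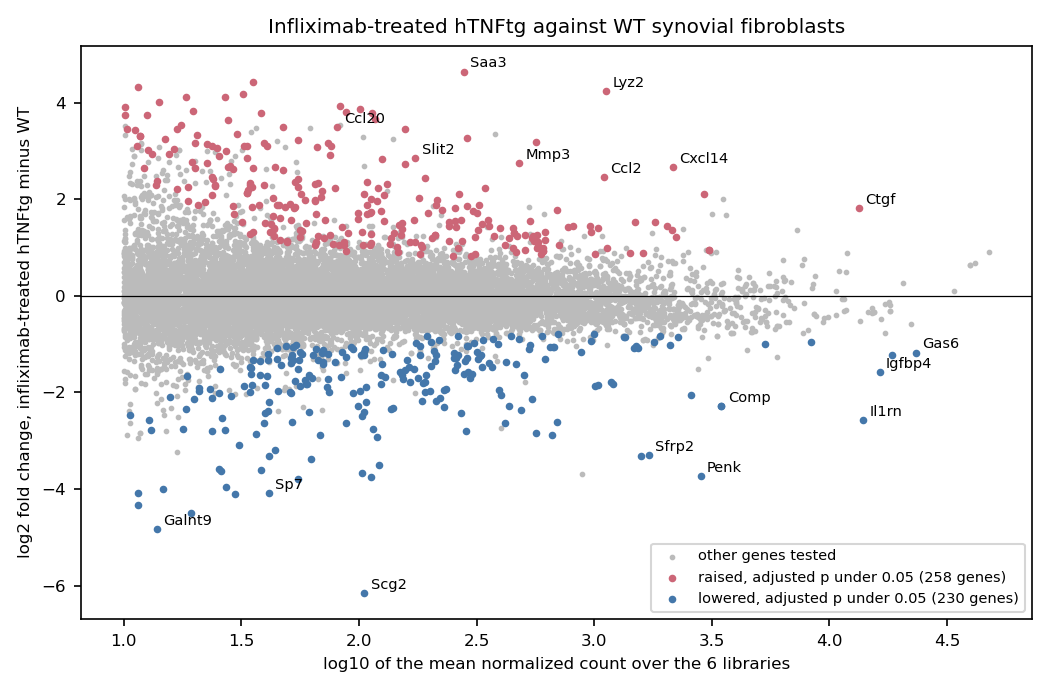
Each point is a gene, placed by the log10 of its mean normalized count over the 6 libraries (x) and its log2 fold change between treated hTNFtg and WT SFs (y). The 258 raised genes in red and 230 lowered genes in blue spread over the whole range of levels, from Galnt9 at a mean near the filter to Gas6 and Igfbp4 among the most abundant genes.

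The largest rise belonged to Saa3, a serum amyloid A that inflamed fibroblasts secrete. Saa3 stood at 15, 20 and 23 normalized counts in WT, at 822, 470 and 329 in treated SFs and at 4933, 3796 and 2073 in untreated hTNFtg SFs. The 3 groups do not overlap, and treated SFs lie between the other two. The log2 fold change against WT was 4.65 ± 0.32 (SE, n = 3 libraries per group, adjusted p = 0.000169), or 28.0 times the WT mean. The SAA family holds near-identical copies, so reads may be split or shared among them.

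Chemokines, the secreted signals that draw leukocytes into the joint, differed from WT in part of the list. Of 26 listed, 15 passed the level filter, 4 of them rose and 1 fell, and the median log2 fold change was 1.14. Ccl20, which attracts CCR6-bearing lymphocytes and dendritic cells, had 15, 12 and 10 counts in WT, 150, 129 and 170 in treated and 1439, 696 and 650 in untreated hTNFtg SFs. Its log2 fold change against WT was 3.51 ± 0.28 (SE, adjusted p = 0.000311). Ccl2, the main attractant of monocytes, rose from 545, 329 and 207 in WT to 1639, 1958 and 1954 in treated SFs, a log2 fold change of 2.46 ± 0.30 (adjusted p = 0.00314), beside 4914, 3855 and 2579 in untreated SFs. The treated levels of both genes lay above every WT library and below every untreated one.

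Ccl5, which attracts T cells and monocytes, was measured at the low end, with 3, 4 and 1 counts in WT, 17, 16 and 32 in treated and 106, 128 and 53 in untreated SFs (log2 fold change against WT 2.66 ± 0.64, adjusted p = 0.044). Cxcl14, a chemokine of homeostatic tissue and sublining fibroblasts, behaved differently, in that its treated counts of 4510, 2955 and 3550 overlapped the untreated ones of 2410, 3640 and 3698. WT SFs held 1145, 517 and 303 counts of Cxcl14 (log2 fold change 2.68 ± 0.39, adjusted p = 0.00497). Cxcl12, which retains leukocytes and progenitors in stroma, fell from 12054, 8959 and 11906 to 7304, 4888 and 4995 (−0.95 ± 0.23, adjusted p = 0.047). Ccl7, another monocyte attractant, had a log2 fold change of 1.14 that did not pass the adjusted threshold (adjusted p = 0.0628). Cxcl5, a neutrophil attractant, overlapped between the groups, at 2053, 1718 and 741 in WT and 3089, 2526 and 1259 in treated SFs, with a log2 fold change of 0.64 (95% interval −0.23 to 1.50). Ccl27a passed the 2-fold rule downward, but it overlaps Il11ra1 in the annotation and their reads cannot be told apart.

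**Figure D2:**
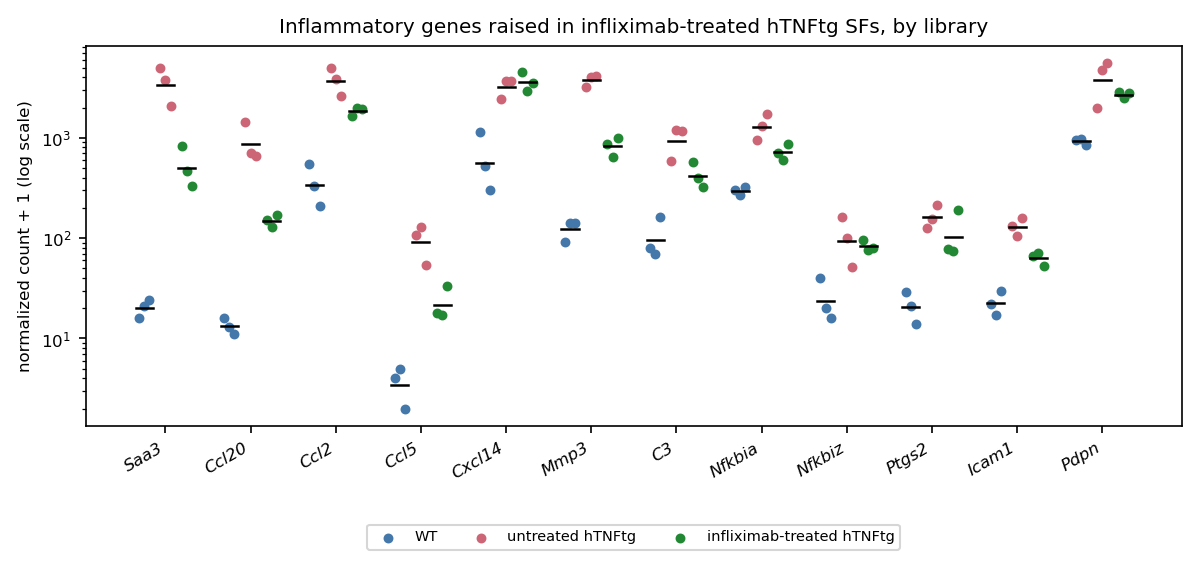
Normalized count plus 1 on a log axis for 12 inflammatory genes, with each point a library and each bar the mean of the log2 values in WT (blue), untreated hTNFtg (red) and infliximab-treated hTNFtg SFs (green). In all 12 genes the 3 treated libraries sit above the 3 WT libraries, and for 8 of them, all but Cxcl14, Nfkbiz, Ptgs2 and Pdpn, they also sit below the 3 untreated libraries.

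Among matrix proteases and their inhibitors, 4 of the 29 members tested rose and 0 fell, and their median log2 fold change was 0.16. Mmp3, the stromelysin that cleaves proteoglycan and activates other proteases, had 90, 140 and 141 counts in WT, 865, 642 and 1004 in treated and 3170, 4055 and 4079 in untreated SFs (2.75 ± 0.25 against WT, adjusted p = 0.000799). Adamts5, the main aggrecanase of mouse cartilage, rose from 685, 342 and 535 to 1767, 1240 and 1174 (1.45 ± 0.27, adjusted p = 0.0141), and untreated SFs held 1962, 1324 and 1363. Adamts1 rose by a log2 fold change of 1.24 ± 0.24 (adjusted p = 0.0172). Unlike Mmp3, the treated counts of Adamts5 overlapped the untreated ones. The fourth raised member, Ctss, is a lysosomal cathepsin typical of myeloid cells. Timp3, an inhibitor of these enzymes, had a log2 fold change of 0.94 with an adjusted p of 0.0683, and the collagenase Mmp13 was not above WT, at 871, 429 and 384 in WT and 293, 298 and 399 in treated SFs (adjusted p = 0.245).

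NF-kB inhibitors and subunits, which the pathway itself induces, had a median log2 fold change of 0.53 over 20 members, of which 2 rose and 1 fell. Nfkbia, the inhibitor that holds NF-kB in the cytoplasm, stood at 302, 267 and 319 counts in WT, 708, 600 and 859 in treated and 953, 1313 and 1714 in untreated SFs (1.27 ± 0.20 against WT, adjusted p = 0.00739). Nfkbiz, an inducible nuclear cofactor, rose from 39, 19 and 15 to 95, 76 and 78 (1.84 ± 0.35, adjusted p = 0.017). The member that fell, Tnip1, has almost the same counts as its neighbour Gpx3 in every library, so its value may be that of Gpx3. Tnfaip2 did not pass, with a log2 fold change of 0.11 (95% interval −0.30 to 0.53).

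Promoters of Ccl20 and Nfkbia, both raised, are shown because they carry a kB motif just before the start site, and that of the lowered gene Il1rn because it carries one too. The motif searched was GGG, any 2 bases and then TTTCC, on both strands, in windows from 250 bases before to 50 bases after each start in RefSeq (GRCm38.p6), and the match is in capitals. The stretches read 5′ to 3′ on the strand of the gene, and none reaches past the start site.
Ccl20, chr1:83116661-83116720, plus strand: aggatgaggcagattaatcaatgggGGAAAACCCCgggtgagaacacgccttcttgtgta
Nfkbia, chr12:55492648-55492701, minus strand: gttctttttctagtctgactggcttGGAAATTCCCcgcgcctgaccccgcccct
Il1rn, chr2:24345295-24345354, plus strand: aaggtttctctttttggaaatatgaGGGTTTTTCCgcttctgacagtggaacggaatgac
Among the raised genes with a promoter in the table, 6 of 170 held the motif (3.53%), against 3 of 163 lowered genes (1.84%) and 195 of 9061 genes tested (2.15%). Over all 32851 promoter windows of that length the share was 1.63%. A match is a description of the letters only.

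Il1rn, the natural antagonist of the interleukin-1 receptor, fell. WT SFs held 30966, 22047 and 17452 counts, treated SFs 5001, 6260 and 1796, and untreated hTNFtg SFs 2859, 4228 and 771. The 2 genotypes do not overlap, and the treated counts overlap the untreated ones. The log2 fold change against WT was −2.58 ± 0.40 (adjusted p = 0.00739). Of the 22 cytokines and receptors tested, Il1rn was the only one that fell and Il1rl1, the receptor of interleukin-33, the only one that rose, from 195, 202 and 163 in WT to 361, 456 and 495 in treated SFs (1.22 ± 0.21, adjusted p = 0.00913). Il6 was not called, at 18, 20 and 37 in WT and 24, 15 and 13 in treated SFs (−0.48, 95% interval −1.39 to 0.43). The mouse gene Tnf, which is distinct from the transgene, had 1, 4 and 7 counts in WT, 29, 15 and 10 in treated and 25, 24 and 24 in untreated SFs, with a log2 fold change of 2.01 that passed the 2-fold rule and not the adjusted threshold (adjusted p = 0.154).

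Prostaglandin synthesis was represented by Ptgs2, the inducible cyclooxygenase, with 28, 20 and 13 counts in WT, 77, 74 and 189 in treated and 125, 155 and 214 in untreated SFs (2.34 ± 0.40, adjusted p = 0.00988). Together with Saa3 it made up the 2 of 15 acute-phase and prostaglandin genes that rose, and 0 fell. By the 2-fold rule 6 members passed upward and 1, Lcn2, downward. Adhesion molecules had 4 raised and 1 lowered member of 23 tested, and 1 of each without treated replicate 3. Icam1, a leukocyte ligand, rose from 21, 16 and 29 to 65, 70 and 52 (1.49 ± 0.31, adjusted p = 0.0248), although an unnamed annotated gene beside it has almost the same counts. Cd44, the hyaluronan receptor, rose from 228, 319 and 269 to 552, 526 and 605 (1.05 ± 0.20, adjusted p = 0.0158), and Ncam1 and Itga6 rose as well, by log2 fold changes of 1.88 and 1.65. Itga1, a collagen-binding integrin chain, fell by 1.75 on the log2 scale (adjusted p = 0.00749). Vcam1 was not called, at 1221, 1758 and 1761 in WT and 1276, 1304 and 1110 in treated SFs. The groups overlap for Vcam1, unlike for the 5 adhesion genes that changed.

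Complement genes had 4 raised members of 18 tested and 0 lowered. C3, the central component that fibroblasts can make, rose from 78, 69 and 162 in WT to 576, 396 and 323 in treated SFs (2.12 ± 0.33, adjusted p = 0.00682), with 592, 1184 and 1171 in untreated SFs. The other three raised members, C1qa, C1qb and C3ar1, are genes that macrophages express. Interferon-stimulated genes had 1 raised member of 25 tested (Isg15, 1.28 ± 0.31, adjusted p = 0.048) and a median of 0.45, close to the 0.46 of complement genes, and MHC class I genes had 0 of 17 and a median of 0.26. Of the MHC class I list, 1 member, H2-Q4, passed the 2-fold rule, and 0 members did so downward.

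Macrophage and myeloid markers stayed high in treated hTNFtg SFs after the CD45+ depletion. Of the 22 markers, 20 passed the level filter, 12 of these rose and 0 fell, and the median log2 fold change was 3.01, beside 3.36 for untreated hTNFtg SFs against the same WT libraries. The 2 that did not pass, Fcgr1 and Cd163, were at 0 to 9 counts in the 6 libraries. Their summed counts were 262, 1333 and 519 in WT, 5646, 3236 and 6747 in treated and 10013, 4792 and 8357 in untreated SFs. Every treated library lies above every WT library, and the sums of treated and untreated SFs overlap. In RNA from a whole culture, fewer cells of a type and less RNA per cell cannot be told apart.

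Lyz2, the lysozyme of macrophages and neutrophils, stood at 43, 277 and 95 counts in WT, 2388, 1277 and 2672 in treated and 5356, 2284 and 2356 in untreated SFs (4.25 ± 0.53 against WT, adjusted p = 0.00361). Lyz1, a near-identical copy that can share its reads, had 1, 7 and 1 counts in WT and 74, 56 and 74 in treated SFs (4.43 ± 0.57, adjusted p = 0.00366). Cx3cr1, the fractalkine receptor, rose from 6, 14 and 23 to 231, 89 and 319 (3.79 ± 0.51, adjusted p = 0.00366). WT replicate 2 held more of these transcripts than the other two WT libraries for Lyz2 and Lyz1, and for Tyrobp, an adaptor of myeloid receptors, with 7, 60 and 6 counts in WT and 278, 99 and 250 in treated SFs (3.67 ± 0.70, adjusted p = 0.0177). Ptprc, which encodes CD45 itself, had 0, 3 and 0 counts in WT, 28, 8 and 22 in treated and 31, 9 and 12 in untreated SFs (adjusted p = 0.0596). Csf1r, the receptor of the macrophage growth factor, was the member tested that did not pass the 2-fold rule, at 101, 125 and 62 in WT and 137, 150 and 182 in treated SFs (0.75 ± 0.27, adjusted p = 0.175), but its counts are almost those of Hmgxb3, which it overlaps, and may be of either gene.

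Other genes with large rises were named by the size of their change. Msr1, a scavenger receptor of macrophages, had 1, 50 and 11 counts in WT and 181, 72 and 289 in treated SFs (3.87 ± 0.91, adjusted p = 0.0426). Ctss, one of the macrophage markers counted above, and Lair1, Ucp2, Sirpb1c, Myo1g and Mir142b also rose, by fitted log2 fold changes of 3.84 to 4.12. Mir142b overlaps the host gene of this leukocyte microRNA, so its reads may be those of the host transcript. Myo1g and Sirpb1c were at or under 3 reads in every WT library, so their folds are lower bounds, at least 11.0-fold and at least 7.92-fold higher in treated SFs. Fxyd2, a regulator of the sodium pump, was at 0 in all 3 WT libraries and at 40, 8 and 21 in treated SFs, at least 9.11-fold higher, with 44, 28 and 32 in untreated SFs.

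Of 11 osteoclast markers 6 were tested, 3 of them passed the 2-fold rule upward and 0 the adjusted threshold, and the median log2 fold change was 1.203. Mmp9, a gelatinase of osteoclasts and macrophages, had 5, 554 and 15 counts in WT and 202, 226 and 1263 in treated SFs, so that WT replicate 2 lies inside the treated range. The macrophage marker sums given above are higher in treated SFs together with the chemokine, complement, protease and receptor genes, and their part in those results was not tested. Chemokines Ccl2, Ccl5 and Ccl20, and the genes Saa3, Mmp3, C3 and Icam1, rose in libraries whose summed fibroblast markers, given at the outset, were below those of every WT library. That sum counts RNA and not cells, and its member Pdpn rose. Its bearing on these genes was not tested.

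**Figure D3:**
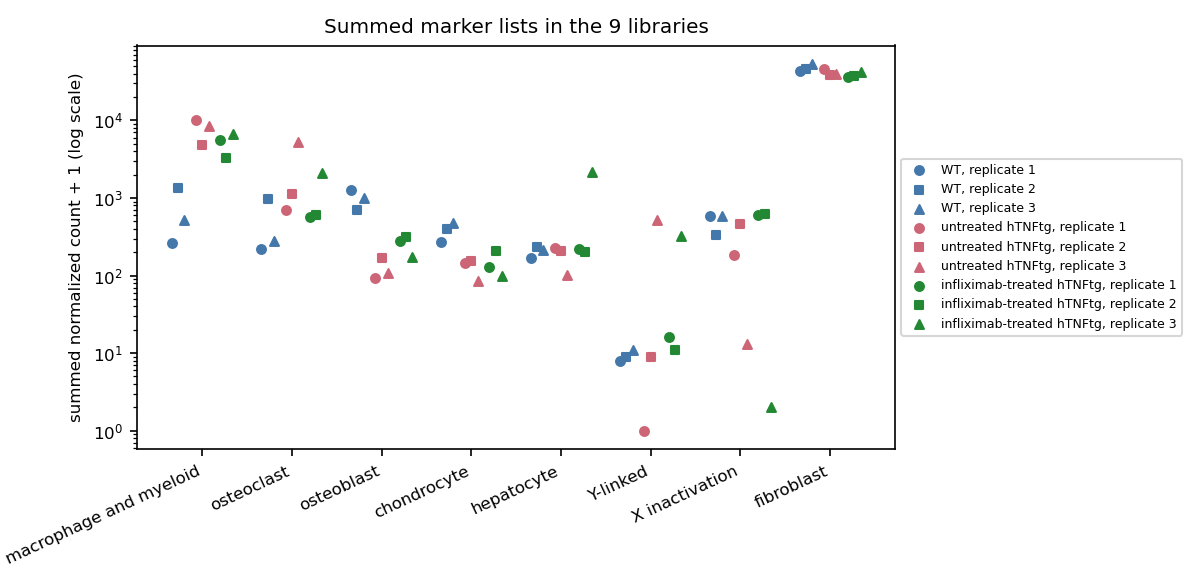
Summed normalized counts plus 1 of 8 marker lists on a log axis, 1 point per library, with the color for the group and the shape for the replicate number. Macrophage sums are 3236 to 6747 in treated against 262 to 1333 in WT SFs, and osteoblast sums are 171 to 312 against 699 to 1252. Treated replicate 3 stands apart from the other treated and WT libraries for hepatocyte, Y-linked and X inactivation genes.

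Slit2 and Ctgf were also raised over WT. Slit2, a secreted guidance protein, rose from 50, 53 and 25 in WT to 282, 245 and 388 in treated SFs (2.85 ± 0.31, adjusted p = 0.00165), while untreated SFs held 93, 172 and 259. Ctgf, a matricellular target of TGF-beta and YAP, had 7434, 4389 and 5494 in WT, 23925, 12853 and 26136 in treated and 6415, 10325 and 18908 in untreated SFs (1.83 ± 0.30, adjusted p = 0.00841). Ctgf was picked after its values were seen, as an abundant gene outside the lists. The treated counts of both genes lie above every WT count and overlap the untreated range.

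ERK feedback and immediate-early genes, which report growth factor signalling, had 4 raised members of 31 tested and 0 lowered, with 10 past the 2-fold rule and a median of 0.83. Dusp6, a phosphatase that restrains ERK, rose from 40, 68 and 61 to 189, 151 and 236 (1.76 ± 0.27, adjusted p = 0.00657), and the ERK-responsive transcription factors Etv4 and Etv5 rose by 2.34 ± 0.40 and 1.42 ± 0.29. Dusp1, a stress and glucocorticoid target, rose from 73, 37 and 27 to 183, 115 and 240 (2.01 ± 0.37, adjusted p = 0.0146). Among growth factors and receptors, 4 rose and 3 fell of 33 tested. Axl, a receptor of the ligand Gas6, rose from 123, 174 and 116 to 407, 391 and 621 (1.76 ± 0.25, adjusted p = 0.00394), while Gas6 itself fell from 41450, 28261 and 27507 to 16144, 16463 and 10616 (−1.17 ± 0.26, adjusted p = 0.0339). Untreated SFs were farther from WT for both, at 791, 530 and 1016 for Axl and 2890, 7260 and 6211 for Gas6. Vegfc, a lymphatic growth factor, rose by 1.71 ± 0.34 (adjusted p = 0.0217).

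The glucocorticoid response list had 3 raised members of 13 tested, Dusp1, Mt2 and Cdkn1a, of which limma called 0 without treated replicate 3, where 5 members of the list passed the 2-fold rule upward. Mt2, a metal-binding protein, rose from 2602, 809 and 545 to 4628, 4006 and 5048 (2.12 ± 0.44, adjusted p = 0.0253). Cdkn1a, an inhibitor of cell division, rose from 391, 481 and 302 to 1028, 601 and 1835 (1.44 ± 0.34, adjusted p = 0.0447), and Ccnd1, a cyclin that starts it, rose as well (1.45 ± 0.19, adjusted p = 0.00366), although its reads overlap those of Oraov1. With Cdkn2a these made 3 raised and 0 lowered members of 48 cell cycle genes, whose median was 0.08. Glycolysis and hypoxia genes had a median of 0.49 and 1 raised member of 32 (Slc16a3, a lactate exporter, 1.42 ± 0.29, adjusted p = 0.0245), with 5 more past the 2-fold rule. Genes of the unfolded protein response and of cholesterol synthesis had medians of 0.04 and 0.06, with 0 of 29 and 1 of 33 raised and 0 lowered in both. Targets of NRF2, the regulator of antioxidant genes, together with metallothioneins, had 2 raised and 2 lowered members of 32. Sod3, the extracellular superoxide dismutase, rose from 322, 306 and 350 to 693, 821 and 758 (1.21 ± 0.18, adjusted p = 0.00601), Mt2 was the other that rose, and Gsta4 and Gpx3 fell. Among 17 pattern-recognition receptors and adaptors 1 rose, the kinase Ripk2 (1.13 ± 0.27, adjusted p = 0.0453), and 0 fell. Ch25h, the raised member of the cholesterol list, makes an oxysterol and stood at 2, 38 and 11 in WT and 141, 141 and 196 in treated SFs (3.82 ± 0.69, adjusted p = 0.0126). Of the 32 lists other than cell type markers, those of chemokines, glucocorticoid response, ERK feedback and lining SFs had medians above 0.7.

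Scg2, a secretogranin of neuroendocrine granules, showed the largest difference of all genes. It had 138, 156 and 331 counts in WT and only 3, 4 and 0 in treated and 0, 3 and 0 in untreated SFs. The log2 fold change was −6.16 ± 0.59 (adjusted p = 0.000835), on values close to the counting limit in both hTNFtg groups. Penk, the precursor of enkephalins, fell from 5079, 3371 and 6877 to 1083, 500 and 93 (−3.72 ± 0.67, adjusted p = 0.012), with 1059, 337 and 133 in untreated SFs. Calca, the precursor of calcitonin and a sensory neuropeptide, was at 10, 44 and 32 in WT and at or under 3 reads in every treated library, at least 10.4-fold lower. These were the 3 lowered of 8 secretogranin and neuropeptide genes tested, and Ngfr, a neurotrophin receptor, was the 1 that rose.

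Of 11 osteoblast markers 4 passed the level filter, and 3 of these fell, Sp7, Alpl and Ibsp. Runx2, a transcription factor that acts before Sp7, did not pass, at 120, 113 and 128 in WT and 116, 88 and 114 in treated SFs (−0.19, 95% interval −0.67 to 0.28). The sums over the list were 1252, 699 and 991 in WT, 276, 312 and 171 in treated and 93, 165 and 107 in untreated SFs. Sp7, the transcription factor that commits cells to the osteoblast lineage, had 65, 80 and 90 counts in WT, 9, 4 and 1 in treated and 0, 2 and 2 in untreated SFs (−4.08 ± 0.54, adjusted p = 0.00366). Alpl, the alkaline phosphatase of mineralizing matrix, fell from 983, 441 and 710 to 129, 206 and 48 (−2.62 ± 0.45, adjusted p = 0.0103), and untreated SFs held 0, 89 and 17. Ibsp, bone sialoprotein, fell by 3.62 ± 0.57 on the log2 scale (adjusted p = 0.00749). The osteocalcin genes Bglap, Bglap2 and Bglap3 were at 8 counts or fewer in every library compared. Treated and WT SFs do not overlap in any of the 3 that fell.

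Of 16 chondrocyte genes tested, 6 fell and 0 rose, and the median log2 fold change was −0.99. Sox9, the master regulator of cartilage, had 1160, 1761 and 1939 counts in WT, 527, 572 and 281 in treated and 174, 272 and 179 in untreated SFs (−1.85 ± 0.29, adjusted p = 0.00739). Comp, an oligomeric matrix protein of cartilage and tendon, fell from 5353, 4373 and 7288 to 1933, 1355 and 573 (−2.28 ± 0.38, adjusted p = 0.00875), and untreated SFs held 299, 848 and 550. Its neighbour Crtc1 has almost the same counts, so the reads of these genes cannot be told apart. Matn4, a matrilin, fell from 205, 194 and 160 to 38, 15 and 4 (−3.67 ± 0.57, adjusted p = 0.00682), and Otor, a small secreted protein of cartilage, from 133, 261 and 278 to 29, 16 and 12 (−3.51 ± 0.37, adjusted p = 0.00145). Cilp and Matn2 were the other two. Acan, the aggrecan of cartilage, was below the level filter, at 16, 16 and 5 in WT and 4 or fewer in treated SFs.

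**Figure D4:**
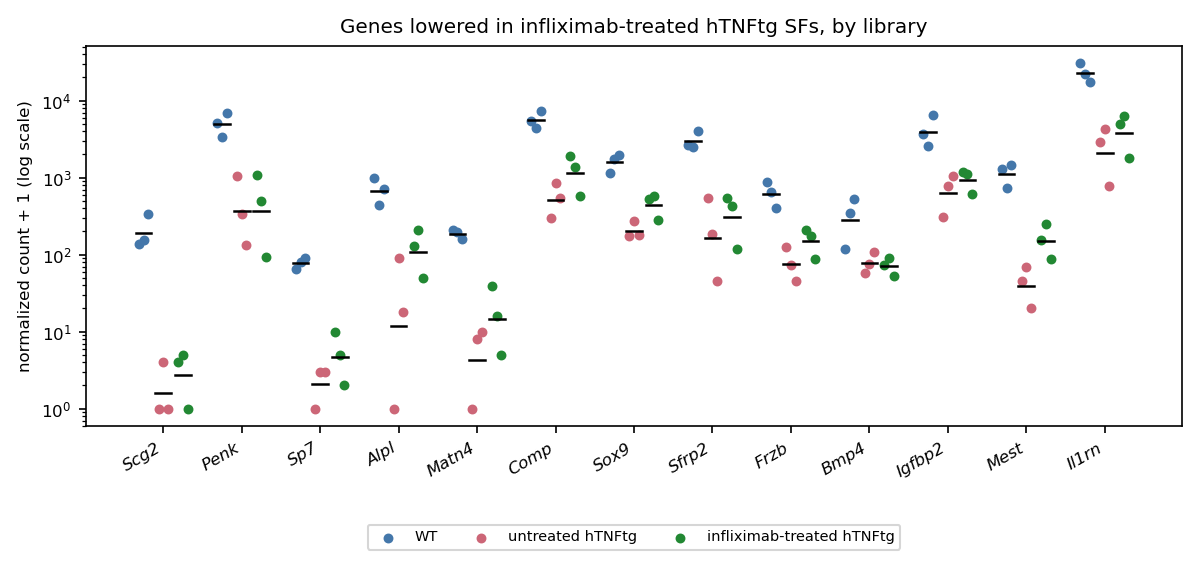
Normalized count plus 1 on a log axis for 13 genes that fell, with points and bars as in the plot of inflammatory genes. The 3 treated libraries (green) lie below the 3 WT libraries (blue) in all 13 genes, and treated replicate 3 is the lowest treated library for each of them.

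Markers of sublining SFs, the fibroblasts below the surface layer, were 9 lowered and 3 raised of 23 tested (4 and 1 without treated replicate 3), with a median of −0.49, and markers of lining SFs 1 raised of 8 with a median of 0.80. Clu, a secreted chaperone, fell from 189, 142 and 302 to 32, 33 and 16 (−2.92 ± 0.35, adjusted p = 0.00312). Thbs4, a matrix thrombospondin, fell by a log2 fold change of 1.03 ± 0.18 (adjusted p = 0.011). Dpt and Col14a1, which organize collagen fibrils, fell as well, Col14a1 by 1.53 on that scale (adjusted p of Dpt = 0.0327). The raised members were Cxcl14, Angptl7 and Apod, so the list did not move as one. Pdpn, a glycoprotein of lining and activated SFs, rose from 941, 982 and 852 to 2862, 2460 and 2772 (1.54 ± 0.18, adjusted p = 0.00289), next to 1987, 4695 and 5582 in untreated SFs. Prg4, the lubricant lubricin made by lining cells, did not pass, at 299, 375 and 321 in WT and 299, 391 and 606 in treated SFs (0.32, 95% interval −0.24 to 0.89).

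WNT signalling, which guides bone and joint formation, had 9 lowered and 0 raised members of 31 tested, with a median of −0.57. Among those that fell were the secreted antagonists Sfrp2 and Frzb. Sfrp2 fell from 2632, 2500 and 4053 to 550, 425 and 119 (−3.30 ± 0.46, adjusted p = 0.00394), with 542, 185 and 44 in untreated SFs, and it shares its reads with an overlapping predicted gene. Frzb fell from 886, 652 and 399 to 209, 176 and 88 (−2.04 ± 0.35, adjusted p = 0.00977). Receptors fell too, namely Fzd4, Fzd8, Fzd9 and Lgr4, by log2 fold changes of 1.61, 1.64, 3.96 and 1.51. The ligand Wnt16 and Rspo3, a secreted enhancer of WNT signalling, fell by 1.34 and 0.97 on that scale. Rspo2, a relative of Rspo3, had a log2 fold change of −1.01 that missed the adjusted threshold (adjusted p = 0.0836). Nkd1, a feedback inhibitor that WNT signalling induces, had 37, 30 and 33 counts in WT, 9, 10 and 6 in treated and 0, 0 and 1 in untreated SFs (−1.90 ± 0.39, adjusted p = 0.0242). Lrp5, a coreceptor, passed the 2-fold rule upward at 48, 53 and 55 against 145, 95 and 87 (adjusted p = 0.0544).

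BMP and TGF-beta signalling had 9 lowered and 2 raised members of 41 tested (4 and 0 without treated replicate 3), and the median over the list was −0.03. Bmp4, a bone morphogenetic ligand, fell from 119, 341 and 527 to 73, 90 and 52 (−1.97 ± 0.45, adjusted p = 0.0356). Id1 and Id4, direct targets of BMP signalling, fell by 1.48 ± 0.24 and 1.78 ± 0.29 on the log2 scale (adjusted p = 0.00763 and 0.00857). Id3, a far more abundant target of the same pathway, was not called, at 14739, 4964 and 2431 in WT and 5220, 6013 and 5415 in treated SFs (−0.02, 95% interval −1.09 to 1.04). Id1 had 352, 528 and 594 counts in WT, 188, 146 and 184 in treated and 37, 122 and 159 in untreated SFs. Smad6 and Smad9, an inhibitor and a mediator of the BMP pathway, and the ligands Bmp5 and Tgfb2 were also among those that fell. Gdf10, a member of the same superfamily, was at 20, 22 and 72 in WT and at or under 3 reads in every treated library, at least 13.8-fold lower. Inhba, the activin subunit, rose from 90, 61 and 23 to 327, 127 and 522 (2.45 ± 0.53, adjusted p = 0.0301), and the receptor Acvrl1 rose by 1.02 ± 0.23. The 3 treated and 3 WT libraries do not overlap for any of these genes but Id3.

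Insulin-like growth factor binding proteins, which hold IGFs in the matrix, were among the most abundant genes that fell. Igfbp4 went from 28065, 23735 and 21589 to 9299, 9534 and 6109 (−1.58 ± 0.24, adjusted p = 0.00631) and Igfbp2 from 3637, 2575 and 6407 to 1185, 1124 and 618 (−2.06 ± 0.34, adjusted p = 0.00839). Untreated SFs held 8383, 4757 and 2908 of Igfbp4 and 311, 781 and 1057 of Igfbp2. With Igfbp5 these made 3 lowered of 21 IGF axis genes, and 1 rose, Igfbp7, whose counts match those of its neighbour Polr2b. Without treated replicate 3 limma called 0 of the list in either direction, where 5 passed the 2-fold rule downward, as many as with all 6 libraries. Igf2 was low and not called, at 24, 10 and 40 in WT and 0, 5 and 10 in treated SFs (adjusted p = 0.159). Of 17 imprinted growth-network genes 3 fell and 1 rose. Mest, a gene expressed from the paternal copy, had 1298, 726 and 1465 counts in WT, 156, 251 and 86 in treated and 44, 68 and 19 in untreated SFs (−2.88 ± 0.37, adjusted p = 0.00366), with reads shared with Copg2. Dlk1, an inhibitor of differentiation, fell from 137, 106 and 102 to 31, 38 and 23 (−1.89 ± 0.27, adjusted p = 0.00475), and Plagl1, a zinc finger regulator of the network, fell by 1.87 ± 0.37.

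Fgfr2 and Fgfr3, receptors of fibroblast growth factors with known roles in bone and cartilage, both fell. Fgfr2 went from 289, 243 and 380 in WT to 77, 78 and 46 in treated SFs (−2.18 ± 0.27, adjusted p = 0.00341) and Fgfr3 from 88, 57 and 94 to 6, 14 and 5 (−3.20 ± 0.41, adjusted p = 0.00366). Treated libraries were clear of WT for both receptors. Other genes with the largest falls were the transcription factor Zfp423, with 46, 52 and 72 counts in WT and 2, 5 and 1 in treated SFs (−4.10 ± 0.52, adjusted p = 0.00366), and the matrix protein Fbln7, with 128, 188 and 312 against 20, 5 and 24 (−3.75 ± 0.50, adjusted p = 0.00366). Galnt9, Lemd1 and Ppp2r2b were at or under 3 reads in every treated library, and their WT levels of 11 to 44 counts allow falls of at least 10.1-fold, 8.38-fold and 8.26-fold.

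Collagens and other matrix genes moved in both directions, with 2 raised and 3 lowered of 25 collagens and medians of 0.05 for collagens and 0.03 for glycoproteins and elastic fibre genes. Col8a1, a short-chain collagen, rose from 405, 333 and 208 to 1359, 843 and 1025 (1.79 ± 0.27, adjusted p = 0.00601). Col27a1, a fibrillar collagen of cartilage, fell from 635, 352 and 388 to 172, 125 and 114 (−1.71 ± 0.26, adjusted p = 0.00682). The main fibril gene Col1a1 did not pass, with a log2 fold change of −0.47 (95% interval −0.96 to 0.02). Vcan, the large proteoglycan versican, rose from 209, 168 and 157 to 449, 515 and 629 (1.57 ± 0.21, adjusted p = 0.00366). Contractile genes had 2 raised members of 20, Tpm1 and Csrp1, with log2 fold changes of 1.23 and 1.44. The 53 proteoglycans, glycoproteins and elastic fibre genes tested held 2 raised and 5 lowered members, among them Smoc1, a calcium-binding matrix protein, at 274, 363 and 453 in WT and 73, 76 and 136 in treated SFs (−1.95 ± 0.28, adjusted p = 0.00502), and Loxl2, an enzyme that crosslinks collagen, at 359, 389 and 308 against 578, 649 and 1167 (1.11 ± 0.26, adjusted p = 0.0417).

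Of 28 HOX and limb position genes, 2 fell and 0 rose, Hoxc13 and Irx3, with log2 fold changes of −1.47 and −0.96. Of 30 axon guidance genes, 2 rose (Slit2 and Sema3c) and 2 fell (Efnb1 and Efna5). Sema3c, a secreted semaphorin, had 31, 15 and 25 counts in WT, 87, 78 and 83 in treated and 131, 116 and 129 in untreated SFs (1.82 ± 0.31, adjusted p = 0.0092). Of 8 Notch genes tested, limma called 0 at the adjusted threshold and 2 had an unadjusted P under 0.05, the target Hes1 with a log2 fold change of 0.63 and the coactivator Maml2 with −0.74.

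Beside untreated hTNFtg SFs, measured against the same WT libraries, the list medians of treated SFs were 1.14 and 1.70 for chemokines, 0.46 and 1.39 for complement, 0.53 and 0.80 for NF-kB genes, −0.99 and −1.13 for chondrocyte genes, −0.49 and −1.10 for sublining markers and −0.57 and −0.91 for WNT genes, treated first. For ERK feedback genes they were 0.83 and 0.37, and for secretogranins and neuropeptides −1.01 and −0.37. The untreated medians include the shallow untreated replicate 1, where a single read equals 6.23 normalized counts and low genes can read 0. Its part in these medians was not tested. Both columns contain the same WT libraries, so their likeness is not a result. The difference between treated and untreated SFs over the same lists was −0.51 for chemokines, −0.28 for complement, 0.47 for chondrocyte and 0.40 for WNT genes, as the median log2 fold change.

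Leaving out treated replicate 3 moved the hepatocyte marker median from 1.73 to −0.07 and moved those of skeletal muscle markers from 0.14 to −0.34, keratinocyte markers from −0.06 to 0.41 and the X inactivation genes from −1.83 to 0.57. Medians near 0 crossed it for collagens (0.05 to −0.21), for proteoglycans and glycoproteins (0.03 to −0.03) and for the unfolded protein response (0.04 to −0.03). The other gene lists kept their sign, with smaller medians for matrix proteases (0.16 to 0.06) and growth factors (0.45 to 0.27) and larger ones for acute-phase genes (0.31 to 0.56), cell cycle genes (0.08 to 0.13), Notch genes (−0.12 to −0.30), HOX and limb position genes (−0.04 to −0.10) and TGF-beta and BMP genes (−0.03 to −0.09). The medians were 1.12 for chemokines, 0.73 for complement, 0.67 for ERK feedback genes, 2.87 for macrophage markers, −0.62 for chondrocyte genes, −0.59 for WNT genes and −2.61 for osteoblast markers. Past the 2-fold rule there were 6 raised chemokines and 7 lowered chondrocyte genes in both fits. Raised macrophage markers went from 19 to 16 and lowered WNT genes from 10 to 9. Raised HOX and limb position genes went from 2 to 0, raised cytokines from 6 to 4 and lowered growth factors from 5 to 3. Raised matrix proteases went the other way, from 5 to 6. Past the adjusted threshold, the genes called over all genes tested went from 258 to 53 raised and from 230 to 86 lowered. Leaving out treated replicate 1 instead left 58 raised and 83 lowered, and the lists were not counted in that fit. Without treated replicate 3, raised genes went from 12 to 3 for macrophage markers, from 4 to 1 for complement and from 4 to 0 for ERK feedback. Lowered WNT genes went from 9 to 2, while the counts of lowered chondrocyte genes and osteoblast markers were again 6 and 3.

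In the same fit without treated replicate 3, the number of lowered genes went from 3 to 2 for imprinted genes and for growth factors, from 5 to 2 for proteoglycans and glycoproteins, from 3 to 1 for collagens, from 2 to 1 for axon guidance, from 2 to 0 for HOX and limb position genes and for NRF2 targets and metallothioneins, and from 1 to 0 for chemokines and for NF-kB genes. It was 3 in both fits for neuropeptides and 1 in both for cytokines and for adhesion molecules. The number of raised genes went from 4 to 3 for chemokines, from 4 to 2 for matrix proteases, from 4 to 1 for growth factors and from 3 to 1 for cell cycle genes. It went from 2 to 1 for NF-kB genes, acute-phase genes, NRF2 targets and metallothioneins, contractile genes, axon guidance, collagens, and proteoglycans and glycoproteins. It went from 1 to 0 in the interferon, glycolysis, cholesterol, pattern-recognition, cytokine, imprinted and neuropeptide lists, and was 1 in both fits for lining markers.

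**Figure D5:**
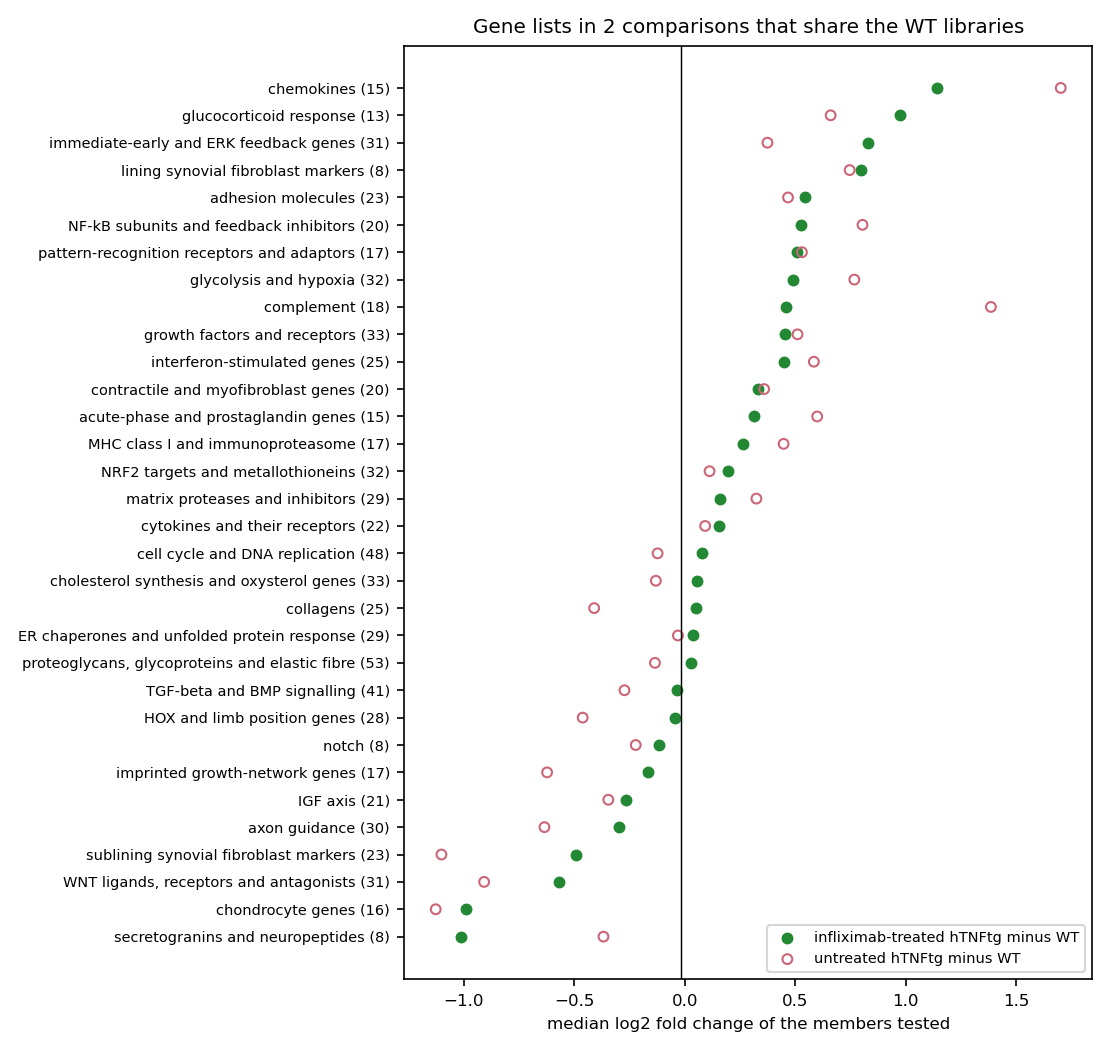
Median log2 fold change of the members tested in each of 32 gene lists, for treated hTNFtg minus WT SFs (filled) and untreated hTNFtg minus WT SFs (open), with the number of members in brackets and a line at the median of all genes tested. Chemokines lie highest at 1.14, chondrocyte genes and neuropeptides lowest at −0.99 and −1.01, and both sets of points use the same WT libraries.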

How the data were processed

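3′ mRNA libraries (QuantSeq) of mouse SFs were compared. According to the methods and the submitters' processing notes, the authors aligned reads to mm10 with TopHat2 and the remainder with Bowtie2, counted them per gene with GenomicRanges and normalized with DESeq through metaseqR (versions not given in the sources used here). The deposited score is a normalized count, scaled by one factor per library and rounded. The deposited signal of untreated hTNFtg replicate 1 is of the same kind, with steps wide enough to recover whole reads (99.9% of its values above 0 equal a whole number of reads times the step, after rounding). These scores are not raw counts, and reads per library were estimated from the spacing of low values, so they are approximate. Another 12 per-sample columns on a log2 scale and 12 scaled by gene model length were not used, nor were the authors' columns of fold changes and p-values.

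log2(normalized count + 1) was tested with limma 3.58.1 (R 4.3.3, lmFit and eBayes with trend) over the 6 libraries and the 13470 genes with a mean of at least 10. P-values were adjusted by the Benjamini-Hochberg method over all of them. Values after ± are standard errors, fold changes are on the log2(value + 1) scale, which understates low genes, and unless stated "rose" and "fell" mean an adjusted p under 0.05. A gene at or under 3 reads in every library of a group is given as a bound against that floor, which covers counting error only. Genes named are the 12 raised and 12 lowered with the largest changes and no overlap, excluding predicted genes, the leading members of each list, and a fixed set; others were picked after their values were seen. A gene that this rule names is not reported here. The members and lists were chosen with earlier results of these data known. Genomic overlap was read from the coordinates in the tables, and 3939 of the 13470 genes overlap another gene tested, among them Angptl7, Bmp4, Cx3cr1, Fgfr2, Itga1, Prg4 and Timp3. The deposited counts carry no statement on strand, so overlapping genes share reads. Promoters came from RefSeq (GRCm38.p6). Alternatives covered the pseudocount, the level filter, normalization, weights, shrinkage, the replicate block, all 9 libraries, edgeR 4.0.16 on approximate reads and each library left out. No libraries held identical values, and p-values measure the spread between these 3 cultures per group.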

Additional observations from a re-analysis of the deposited data

How the results depend on the processing

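All 488 called genes kept their direction under the 18 alternatives wherever they were tested, and the median log2 fold change of all genes stayed between −0.02 and 0.00. The kept direction is not a check of these calls. Leaving out a library cannot reverse a gene whose groups do not overlap. Several other alternatives change only the error or the genes tested and leave the fold change as it was. The counts of 258 raised and 230 lowered genes fell to 103 and 106 with all 28243 genes above 0 in at least 1 library, where the 2-fold rule gave 1090 and 833. With a mean of at least 50 (8553 genes) 147 rose and 157 fell, and the 2-fold rule gave 239 and 223. Array quality weights gave 1152 and 1171, and a fit of all 9 libraries 59 and 23. Leaving out 1 library gave 53 to 819 raised and 83 to 689 lowered genes, and 512 to 877 and 357 to 635 by the 2-fold rule. The causes were not tested, beyond the fewer or more genes and libraries in these fits. Pseudocounts, rescaling, robust shrinkage, edgeR (248 and 214) and, chosen after seeing the data, only genes that overlap no other (231 and 210 of 9531) stayed within 1.5 times.

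Same-numbered WT and treated replicates did not deviate together, with correlations of 0.107, −0.143 and 0.016 for numbers 1 to 3. Between different numbers the correlations ranged from −0.173 to 0.211. No pairing by number was seen, and with 3 libraries per group these values cannot exclude it. Treated and untreated hTNFtg libraries were not compared in this way. A replicate block gave 192 raised and 179 lowered genes, and 599 and 455 by the 2-fold rule. Of the 126 named genes that were called, 103 passed under the block, 118 by edgeR, 35 in the fit of all 9 libraries, 60, 75 and 58 without treated replicates 1, 2 and 3, and 123, 80 and 80 without WT replicates 1, 2 and 3. Tnfaip2 turned to −0.065 with array quality weights. Xist ranged from −4.25 without treated replicate 2 to 0.28 without treated replicate 3. Id3 was 0.178 with quantile normalization and 0.188 with array weights, and ranged from −0.63 without WT replicate 3 to 0.67 without WT replicate 1. None of these genes was called. Of 16 list medians beyond 0.5 in size, over lists with at least 3 genes tested, 1 changed sign, that of hepatocyte markers without treated replicate 3 (−0.07), as did the X inactivation pair (−1.83 to 0.57). Depth limits genes near 3 reads, and the folds of those at that floor are bounds.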
